A study of Mus musculus with 10 samples.

Results

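Glycolytic, oxygen-sensing and hypoxia-induced genes were followed across K7M2, a mouse osteosarcoma cell line, and 4 lines made from it. The set was chosen by gene name for its known roles and held 43 of the 41743 gene names in the count tables: 7 genes of oxygen sensing, 22 of glucose entry and glycolysis, and 14 hypoxia-induced targets. The T567A line was Ezrin -/- K7M2 stably transfected with ezrin T567A, in which threonine T567 is replaced and cannot be phosphorylated. The T567D line was Ezrin -/- K7M2 with ezrin T567D, which mimics phosphorylation at that residue. The wild-type line was Ezrin -/- K7M2 with wild-type ezrin, and the empty-vector line was Ezrin -/- K7M2 with the vector alone. The parental line was unedited K7M2. Ezrin, encoded by Ezr, tethers actin to the plasma membrane. The 4 derived lines share the CRISPR/Cas9 disruption of Ezr, and their titles share the tag col3. Each construct was carried by a single stable line, so construct and line cannot be told apart. Per the labels the cells received no treatment, so no line had been exposed to low oxygen on purpose. Poly-A RNA of 2 libraries per line was sequenced. Whether these were separate cultures is not stated, and p-values therefore measure only how far libraries of a line spread, which may be technical.

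Cells sense oxygen through prolyl hydroxylases, encoded by Egln1, Egln2 and Egln3, which mark the alpha subunits of the hypoxia-inducible factor (HIF) for capture by the VHL ubiquitin ligase and degradation. When oxygen is low the alpha subunit persists, pairs with ARNT, and binds motifs with the core ACGTG or GCGTG near genes for glucose uptake, glycolysis, lactate release, mitophagy, angiogenesis and collagen hydroxylation. Egln3 is itself a HIF target, so that the pathway feeds back on its own sensor. Because HIF-1α is controlled mainly as a protein, Hif1a mRNA does not report the activity of the factor. Glycolysis turns glucose into pyruvate, and tumour cells, osteosarcoma included, often run it at a high rate in normal oxygen.

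The shallowest library was T567A replicate 2, with 14679424 counts, and the deepest T567A replicate 3, with 18230763. Levels below are CPM of single libraries, with library totals adjusted by TMM, and 3 counts equalled 0.167 to 0.207 CPM. Changes are log2 fold changes ± standard error (SE), the first line named minus the second. Ezr itself was at 247.7 and 252.8 CPM in T567A, 204.0 and 181.5 in T567D, 230.4 and 233.5 in wild type, 72.4 and 72.9 in empty vector, and 164.1 and 165.7 in parental libraries. The label of osteoblast-type osteosarcoma was borne out by some markers and not others: Runx2, Col1a1, Col1a2, Spp1 and Sparc were at 32.3 CPM or more in every library, Alpl lay between 1.69 and 13.9, and Sp7, Ibsp and Bglap had at most 5 counts in a library. The pan-leukocyte gene Ptprc had at most 6 counts in a library and the macrophage gene Adgre1 had 0. The haematopoietic marker Cd68 lay between 1.80 and 2.63 CPM, whereas Csf1r lay between 1176 and 1681 CPM. The epithelial markers Epcam, Cdh1 and Krt18 had at most 4 counts, and the endothelial markers Pecam1, Cdh5 and Kdr were at most at 1.97 CPM. Mitochondrially encoded genes took 1.90% and 1.44% of counts in the T567A libraries, against 0.844% to 1.33% in the other 8. By a chi-square per degree of freedom, the 2 T567A libraries also differed more from each other than those of any other line. It was 8.45 against 2.44 to 4.35 over all genes, and 28.2 against 2.38 to 16.7 over the genes of the set. The median absolute log2 ratio between the 2 libraries, over tested genes of the set, was 0.083 in T567A. It was 0.097 in parental cells, 0.089 in empty vector, 0.058 in wild type and 0.054 in T567D.

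Of the 43 genes, 39 had enough counts to be tested. The others were Epas1, which encodes HIF-2α, with 0 to 7 counts per library, Slc2a3, which encodes the glucose transporter GLUT3, with 0 or 1, Aldoc, which encodes aldolase C, with 3 to 8, and Adm, which encodes the vasodilator adrenomedullin, with 0 to 2. Compared per length in the deposited RPKM, averaged over the 10 libraries, the glycolytic enzymes led the set: Pgam1 (phosphoglycerate mutase) stood at 623 RPKM, Pkm (pyruvate kinase) at 499, Pgk1 (phosphoglycerate kinase) at 411 and Ldha (lactate dehydrogenase A) at 279. Aldoa, which the tables list as Aldoa_1, averaged 246 RPKM, Gapdh 196, Tpi1 181 and Eno1 127. The most abundant gene outside glycolysis was P4ha1, a collagen prolyl hydroxylase subunit, at 35.6 RPKM, followed by Hif1a at 34.0. The 22 glycolytic genes together took 1.05% and 1.15% of counts in the T567A libraries, 0.948% and 0.942% in T567D, 0.984% and 0.996% in wild type, 1.05% and 1.01% in empty vector, and 1.02% and 0.961% in parental cells.

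Among the 5 lines, 37 of the 39 tested genes differed in edgeR's quasi-likelihood F-test (Benjamini-Hochberg adjusted p under 0.05), a share to be read against 78.0% of all 12595 tested genes. The exceptions were Arnt (adjusted p = 0.20) and Pkm (adjusted p = 0.13). The highest line mean was in T567A for 25 of the 39, in T567D for 2, in empty vector for 3 and in parental cells for 9. This count was not made over all tested genes, so whether it is particular to the set cannot be told. Both T567A libraries lay above the 8 others for 19 genes, against 16.8% of all tested genes, and below them for Egln2, Egln3 and Mxi1, against 15.5%. Both T567D libraries lay below the 8 others for 7 genes (Hk2, Eno2, Tpi1, Gapdh, Ldha, Ero1l and Bnip3l), against 3.16%, and above them for Egln3, against 3.52%. Empty-vector libraries stood above the rest for Eno1, against 8.03%, and below for Pfkfb3, Pfkfb4 and P4ha2, against 7.40%. Wild-type libraries stood below the rest for Higd1a, against 2.36%. Parental libraries stood above the rest for 5 genes (Pfkfb3, Pfkfb4, Hk2, Vhl and Egln1), against 23.7%, and below for 14, against 23.2%.

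**Figure D1:**
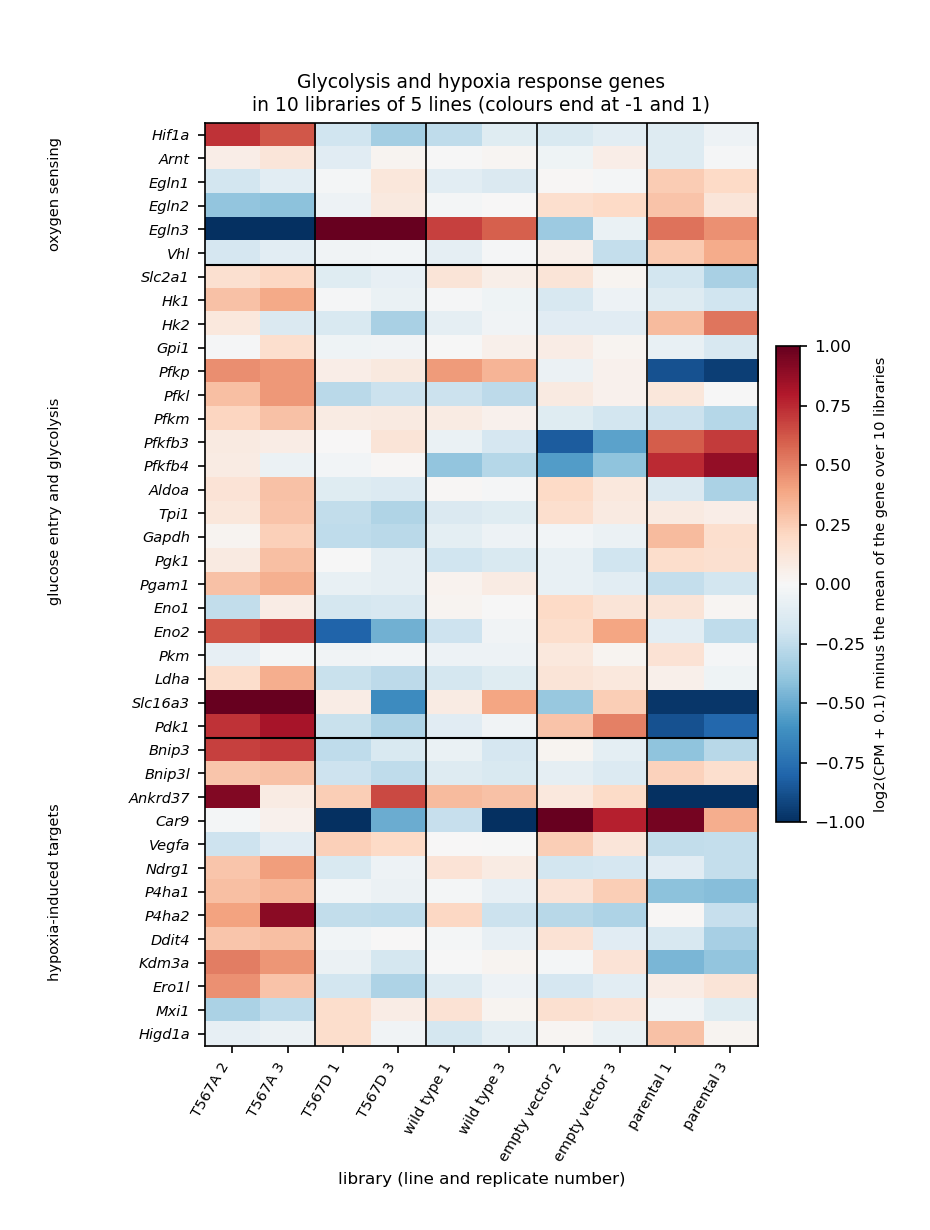
Heat map of the 39 tested genes (rows, by role) in the 10 libraries (columns, by line and replicate number); colour gives log2(CPM + 0.1) minus the gene's mean over the libraries and ends at -1 and 1. Both T567A columns are above all other columns for 19 of the 39 genes. Egln3 is dark blue in T567A and dark red in T567D, and the parental columns are the lowest for Pfkp, Pdk1, P4ha1 and Ankrd37.

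In the oxygen-sensing group, Hif1a and Egln3 set the T567A line apart. Hif1a (chromosome 12, 73901375 to 73947530, plus strand of GRCm38) encodes HIF-1α. It was at 345 and 321 CPM in T567A, 182 and 165 in T567D, 175 and 192 in wild type, 188 and 194 in empty vector, and 191 and 202 in parental libraries. The T567A libraries were the 2 highest, and the other 8 lay between 165 and 202. In bulk RNA, fewer cells with a transcript and less of it per cell cannot be told apart. Hif1a was higher in T567A than in wild type (log2 fold change 0.86 ± 0.067, adjusted p = 1.9e-09), than in T567D (0.94 ± 0.067, adjusted p = 4.1e-10) and than in empty vector (0.80 ± 0.067, adjusted p = 4.1e-09). T567D and wild type differed by -0.08 ± 0.068, which missed the threshold (adjusted p = 0.74).

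Egln3 (chromosome 12, 54178981 to 54203860, minus strand) encodes the prolyl hydroxylase PHD3. It was at 1.86 and 2.17 CPM in T567A, 24.3 and 25.2 in T567D, 16.0 and 15.0 in wild type, 7.69 and 9.43 in empty vector, and 14.5 and 13.7 in parental libraries. The 5 lines ran in the order T567A, empty vector, parental, wild type and T567D, with no overlap between neighbouring lines, though parental and wild type did not pass the test (0.14 ± 0.11, adjusted p = 0.28). Egln3 fell in T567A against wild type (log2 fold change -2.93 ± 0.16, adjusted p = 5.1e-12) and against empty vector (-2.07 ± 0.17, adjusted p = 4.7e-09). It rose in T567D against wild type (0.68 ± 0.10, adjusted p = 0.00087) and against empty vector (1.53 ± 0.11, adjusted p = 5.3e-09). T567A and T567D stood -3.60 ± 0.15 apart on the log2 scale (adjusted p = 7.4e-14), the widest difference of any tested gene of the set in the 8 comparisons. Egln3 also rose in wild type against empty vector (0.86 ± 0.12, adjusted p = 3.5e-05) and fell in empty vector against parental cells (-0.72 ± 0.12, adjusted p = 3e-05). Each of these calls held under all alternative settings and with any 1 library left out.

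Egln2 (chromosome 7, 27158658 to 27166802, minus strand), which encodes PHD1, was at 41.01 and 40.5 CPM in T567A, 52.2 and 57.9 in T567D, 53.3 and 54.2 in wild type, 60.8 and 61.9 in empty vector, and 65.7 and 58.6 in parental libraries. Both T567A libraries were the lowest of the 10. Egln2 fell in T567A against wild type (log2 fold change -0.40 ± 0.078, adjusted p = 0.00037) and against T567D (-0.43 ± 0.078, adjusted p = 0.00013). Egln1 (chromosome 8, 124908587 to 124949324, minus strand), which encodes PHD2, the main hydroxylase of HIF-1α in normal oxygen, was at 91.3 and 96.2 CPM in T567A, 102 and 112 in T567D, 96.0 and 93.8 in wild type, 104 and 102 in empty vector, and 123 and 119 in parental libraries. The parental libraries were the highest, and T567A and wild type overlapped (-0.02 ± 0.066, adjusted p = 0.87). Egln1 fell in empty vector against parental cells (log2 fold change -0.23 ± 0.065, adjusted p = 0.0051), and this call was lost without empty-vector replicate 3. The lower Egln1 in T567A than in T567D (-0.19 ± 0.066, adjusted p = 0.024) was lost in 4 of 20 alternative settings (adjusted p of up to 0.21), 2 of which left out T567A replicate 2 or T567D replicate 3.

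Vhl (chromosome 6, 113623959 to 113631633, plus strand), the substrate receptor of the ligase, was at 18.1 and 18.9 CPM in T567A, 19.9 and 20.0 in T567D, 19.1 and 20.2 in wild type, 21.1 and 17.3 in empty vector, and 24.4 and 26.4 in parental libraries. The parental libraries were the 2 highest, and empty-vector libraries overlapped those of the other derived lines. T567A libraries lay just below those of wild type and T567D, and neither difference passed the test (adjusted p = 0.53 and 0.42). Vhl fell in empty vector against parental cells (log2 fold change -0.40 ± 0.099, adjusted p = 0.0016), which did not hold without empty-vector replicate 3 (adjusted p = 0.065), and was lower in wild type than in parental cells as well (-0.37 ± 0.098, adjusted p = 0.0032). Arnt, the dimer partner of HIF-α, lay between 138 and 164 CPM in all libraries and passed in none of the 8 comparisons. Epas1, with at most 7 counts in a library, was at or near the floor in every line.

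**Figure D2:**
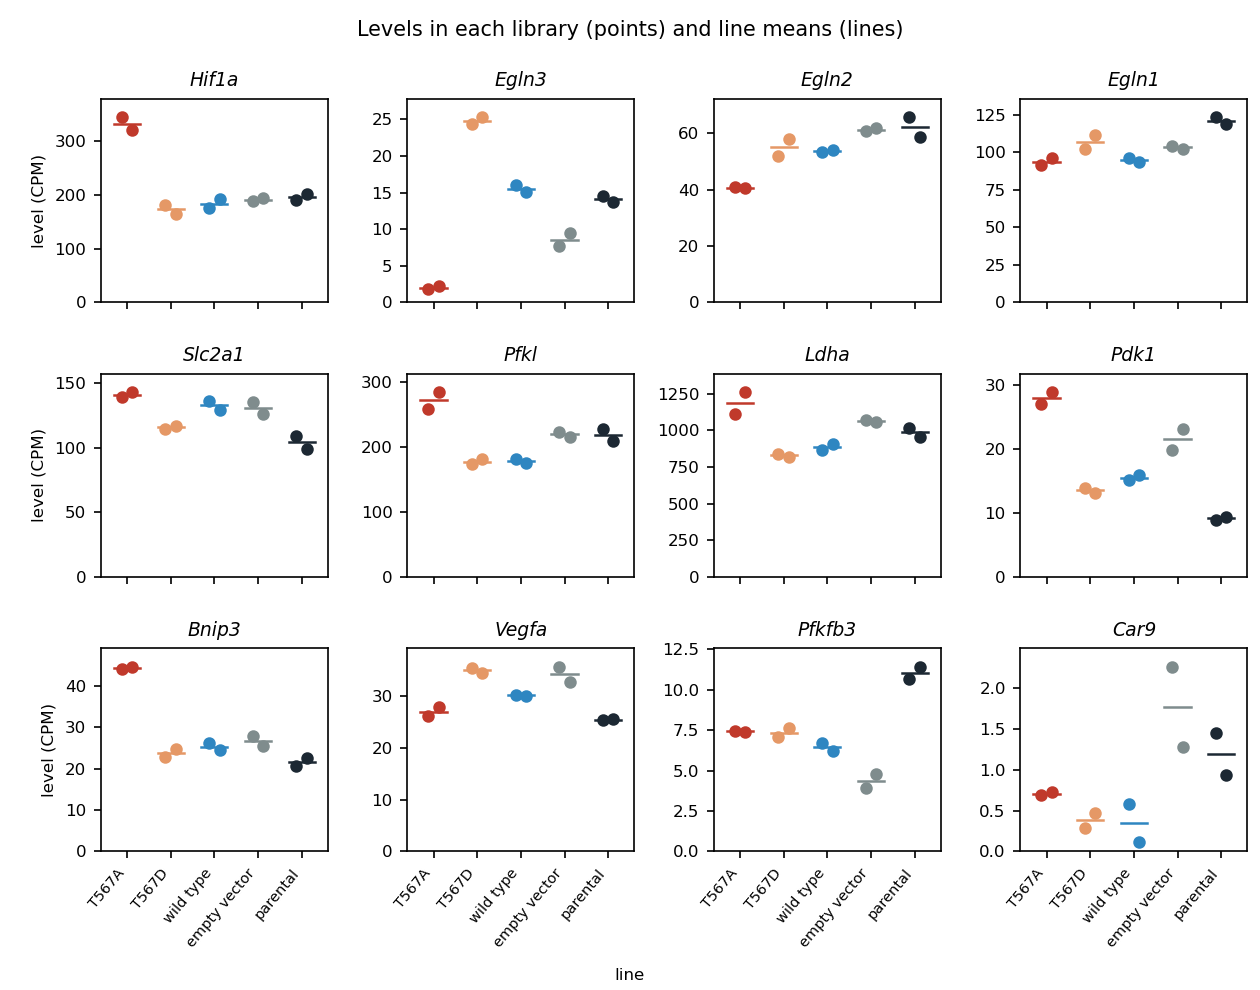
CPM (y axis, from 0) of 12 genes in the 2 libraries (points) of each line (x axis), with a line at the mean. Hif1a, Pfkl, Pdk1 and Bnip3 are highest in T567A, Egln3 is at 1.86 and 2.17 CPM in T567A against 24.3 and 25.2 in T567D, and Car9 reaches at most 2.26 CPM.

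Several of these genes carry the HIF core letters in their proximal promoters, and 6 promoters are printed as examples. They are those of Egln3, Bnip3, Pdk1 and Ldha, and those of Pgk1 and Car9, which are standard HIF reporter genes. All 6 genes differed among the lines, and all 6 windows hold at least 1 match. This is not so of every gene that differed: the windows of Eno2, Tpi1 and Vhl held neither motif. That of Pfkl held 1 GCGTG and no ACGTG. Promoter windows came from RefSeq (GRCm38.p6) and span 300 bases, 250 before to 50 after the annotated start. A window existed for 39 of the 43 genes, 58 windows in all. Capitals mark ACGTG and GCGTG on either strand (CACGT and CACGC on the printed strand), and CACGTG holds ACGTG in both directions.
Egln3, chr12:54203825-54204124, minus strand: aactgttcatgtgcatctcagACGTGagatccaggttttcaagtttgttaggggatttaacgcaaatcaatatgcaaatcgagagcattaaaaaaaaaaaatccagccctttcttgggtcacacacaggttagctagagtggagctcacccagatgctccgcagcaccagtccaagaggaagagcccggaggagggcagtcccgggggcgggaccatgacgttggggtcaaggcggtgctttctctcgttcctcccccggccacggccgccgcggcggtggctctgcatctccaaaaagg
Bnip3, chr7:138909457-138909756, minus strand: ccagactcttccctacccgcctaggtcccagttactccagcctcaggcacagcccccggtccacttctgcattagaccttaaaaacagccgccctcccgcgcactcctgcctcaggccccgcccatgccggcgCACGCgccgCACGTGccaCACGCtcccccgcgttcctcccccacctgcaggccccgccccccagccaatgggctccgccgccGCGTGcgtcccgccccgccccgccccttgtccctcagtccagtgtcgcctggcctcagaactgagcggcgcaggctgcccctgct
Pdk1, chr2:71872974-71873273, plus strand: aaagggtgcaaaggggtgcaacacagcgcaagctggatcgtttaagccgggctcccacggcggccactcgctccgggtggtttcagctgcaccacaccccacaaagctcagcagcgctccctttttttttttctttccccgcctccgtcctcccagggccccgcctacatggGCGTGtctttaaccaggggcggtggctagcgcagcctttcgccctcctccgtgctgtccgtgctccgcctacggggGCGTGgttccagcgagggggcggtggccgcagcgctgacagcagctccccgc
Ldha, chr7:46845554-46845853, plus strand: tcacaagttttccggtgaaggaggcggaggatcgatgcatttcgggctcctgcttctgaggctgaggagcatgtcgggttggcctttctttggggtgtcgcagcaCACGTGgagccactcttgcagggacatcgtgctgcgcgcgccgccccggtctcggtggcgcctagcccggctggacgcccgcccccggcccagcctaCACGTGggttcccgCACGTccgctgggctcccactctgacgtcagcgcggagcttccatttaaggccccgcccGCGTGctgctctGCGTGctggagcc
Pgk1, chrX:106186850-106187149, plus strand: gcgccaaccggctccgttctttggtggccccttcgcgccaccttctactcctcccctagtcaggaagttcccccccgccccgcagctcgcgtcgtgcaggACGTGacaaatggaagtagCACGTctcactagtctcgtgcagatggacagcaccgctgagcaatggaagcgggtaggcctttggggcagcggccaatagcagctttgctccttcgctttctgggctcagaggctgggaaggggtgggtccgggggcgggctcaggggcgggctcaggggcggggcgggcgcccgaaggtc
Car9, chr4:43506776-43507075, plus strand: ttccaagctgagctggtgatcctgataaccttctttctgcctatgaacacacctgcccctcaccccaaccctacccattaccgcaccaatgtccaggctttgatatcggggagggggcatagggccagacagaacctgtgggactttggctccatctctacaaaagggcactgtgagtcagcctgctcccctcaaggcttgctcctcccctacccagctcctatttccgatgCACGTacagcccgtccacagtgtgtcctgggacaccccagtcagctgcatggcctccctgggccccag
Egln3 held a single ACGTG, 229 bases before the start, Bnip3 held ACGTG in both directions within 1 CACGTG plus 3 GCGTG, and Pdk1 held 2 GCGTG. Pdk1 and Ldha each have another RefSeq window that is not printed, with neither motif for Pdk1 and with 2 GCGTG and no ACGTG for Ldha. The printed Ldha window held 5 ACGTG, 4 of them in 2 CACGTG, and 2 GCGTG downstream of the start. Pgk1 held 2 ACGTG, 150 and 131 bases before the start, and Car9 held 1, 18 bases before it. Over the set, ACGTG was present in 31 of the 58 windows (53.4%), against 19.6% of the 32851 RefSeq windows of this length, and ACGTG or GCGTG in 45 (77.6%), against 43.8%. The set was chosen for known roles that include HIF targets, so these shares are no independent result. Some genes have several windows, which can overlap, and each was counted. A match is a run of letters and no evidence of binding, and HIF sites outside these windows were not looked for.

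The comparison of T567A with wild type asked what the loss of the phosphorylatable residue changed when ezrin was put back. Of the 39 genes, 20 rose and 3 fell in T567A, against 20.4% and 19.1% of all tested genes (39.6% in either direction). The median log2 fold change was 0.24 over the 39 and -0.00036 over all genes. The rise was spread over glycolysis, with 11 of 20 tested genes higher and 9 not past the test, and over the hypoxia-induced targets, with 8 of 13 higher, 1 lower and 4 not past the test. In the oxygen-sensing group 1 of 6 rose and 2 fell. Of the 20 rises, 6 exceeded 1.5-fold, as did 725 of all 12595 tested genes.

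After Hif1a, the largest rises were those of Pdk1, Bnip3, Eno2, P4ha2 and Pfkl. Pdk1 (chromosome 2, 71873224 to 71903858, plus strand), the kinase that inactivates pyruvate dehydrogenase, was at 27.0 and 28.8 CPM in T567A, 13.9 and 13.1 in T567D, 15.1 and 15.9 in wild type, 19.8 and 23.1 in empty vector, and 8.83 and 9.39 in parental libraries. T567A was the highest line, parental cells were the lowest, and no lines overlapped. Pdk1 rose in T567A against wild type (log2 fold change 0.85 ± 0.099, adjusted p = 7.5e-07). Bnip3 (chromosome 7, 138890836 to 138909519, minus strand), a mitophagy receptor of the outer mitochondrial membrane, was at 44.1 and 44.8 CPM in T567A, 22.9 and 24.7 in T567D, 26.1 and 24.4 in wild type, 27.9 and 25.6 in empty vector, and 20.7 and 22.6 in parental libraries. The T567A libraries lay above the 8 others (0.81 ± 0.084 against wild type, adjusted p = 1.3e-07). Its paralog Bnip3l (chromosome 14, 66985239 to 67008877, minus strand), another mitophagy receptor, was at 114 and 116 CPM in T567A, 81.4 and 79.0 in T567D, 86.2 and 84.5 in wild type, 88.2 and 85.6 in empty vector, and 110.4 and 106 in parental libraries. T567A was again the highest line, with parental cells next, and Bnip3l rose in T567A against wild type (0.43 ± 0.062, adjusted p = 1.3e-05).

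Eno2 (chromosome 6, 124760053 to 124769673, minus strand), the gamma enolase, was at 12.2 and 12.5 CPM in T567A, 4.45 and 5.55 in T567D, 6.75 and 7.60 in wild type, 8.82 and 10.3 in empty vector, and 7.26 and 6.53 in parental libraries. T567A was the highest line and T567D the lowest, without overlap with the others. Eno2 rose in T567A against wild type (log2 fold change 0.78 ± 0.13, adjusted p = 9.8e-05). Pfkl (chromosome 10, 77986947 to 78010083, minus strand), the liver-type subunit of phosphofructokinase, the committing step of glycolysis, was at 258 and 284 CPM in T567A, 174 and 180.5 in T567D, 181 and 175 in wild type, 223 and 216 in empty vector, and 227 and 209 in parental libraries. The T567A libraries were the highest, and T567D and wild type overlapped at the bottom. Pfkl was higher in T567A than in wild type by 0.61 ± 0.064 (adjusted p = 1.8e-07). P4ha2 (chromosome 11, 54100095 to 54131665, plus strand), a collagen prolyl 4-hydroxylase subunit, was at 5.66 and 8.07 CPM in T567A, 3.58 and 3.56 in T567D, 4.95 and 3.66 in wild type, 3.50 and 3.41 in empty vector, and 4.30 and 3.62 in parental libraries. Its T567A libraries were the highest but differed between themselves, and its rise (0.69 ± 0.19, adjusted p = 0.0057) was lost with DESeq2, without wild-type replicate 3 and without T567A replicate 3.

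Ldha (chromosome 7, 46841475 to 46855627, plus strand), which turns pyruvate into lactate, was at 1110.1 and 1262 CPM in T567A, 839.8 and 818 in T567D, 869.7 and 905 in wild type, 1074 and 1058 in empty vector, and 1018 and 956 in parental libraries. T567A was the highest line, and its replicate 3 was the highest library. Ldha rose in T567A against wild type (log2 fold change 0.42 ± 0.063, adjusted p = 2.1e-05). The other glycolytic rises were Hk1 (hexokinase 1, 0.37 ± 0.061), Pgk1 (0.38 ± 0.067), Tpi1 (triose phosphate isomerase, 0.33 ± 0.062), Pgam1 (0.27 ± 0.055), Aldoa (0.22 ± 0.066), Gapdh (0.21 ± 0.067) and Pfkm (the muscle-type phosphofructokinase subunit, 0.20 ± 0.067), with adjusted p between 6.5e-05 and 0.024. In replicate 3 of T567A the glycolytic genes as a group took a larger share of counts than in replicate 2, and the calls of Aldoa, Gapdh and Pfkm were lost without replicate 3. Those of Aldoa and Gapdh were lost as well without either wild-type library and with limma on RPKM, and that of Pfkm held in 10 of 20 alternative settings. Without T567A replicate 3 fewer genes of the set rose than without T567A replicate 2, and each of these fits leaves 1 T567A library. The share of all tested genes called in this comparison moved over the settings too. The T567A libraries also had the highest mitochondrially encoded share, and its part in these differences was not tested.

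Slc2a1 (chromosome 4, 119108711 to 119137983, plus strand), which encodes the glucose transporter GLUT1, was at 139 and 143 CPM in T567A, 114 and 117 in T567D, 136 and 129.7 in wild type, 136 and 127 in empty vector, and 109 and 99.2 in parental libraries. T567A libraries were the highest by a narrow margin, and the difference from wild type did not pass the test (log2 fold change 0.09 ± 0.066, adjusted p = 0.3). Hk2, the hypoxia-responsive hexokinase, differed by 0.04 ± 0.097 (adjusted p = 0.75), Gpi1, glucose phosphate isomerase, by 0.06 ± 0.063 (adjusted p = 0.51) and Pkm by 0.01 ± 0.060 (adjusted p = 0.96). Slc16a3, which encodes the lactate exporter MCT4, was near the floor, at 0.759 and 0.835 CPM in T567A, 0.347 and 0.175 in T567D, 0.349 and 0.457 in wild type, 0.226 and 0.405 in empty vector and 0.116 and 0.117 in parental libraries. Its difference between T567A and wild type did not pass (0.98 ± 0.47, adjusted p = 0.1).

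Among the hypoxia-induced targets, T567A also had higher Kdm3a (a histone demethylase, 0.46 ± 0.076), Ero1l (an oxidase of the endoplasmic reticulum, 0.46 ± 0.077), P4ha1 (0.37 ± 0.061), Ddit4 (an inhibitor of mTORC1, 0.34 ± 0.081) and Ndrg1 (a stress-responsive gene, 0.24 ± 0.067), with adjusted p between 5.7e-05 and 0.0071. The Ndrg1 call was lost without wild-type replicate 3 and without T567A replicate 3. Not all targets moved this way. Mxi1 (chromosome 19, 53310518 to 53375810, plus strand), which encodes an antagonist of MYC, was at 30.4 and 31.9 CPM in T567A, 43.1 and 40.0 in T567D, 42.1 and 38.8 in wild type, 42.6 and 41.9 in empty vector, and 37.0 and 35.0 in parental libraries. The T567A libraries were the lowest of the 10, and Mxi1 fell against wild type (log2 fold change -0.37 ± 0.081, adjusted p = 0.00092). Vegfa (chromosome 17, 46016993 to 46032369, minus strand), the main angiogenic growth factor of the response, was at 26.2 and 27.9 CPM in T567A, 35.5 and 34.6 in T567D, 30.2 and 30.2 in wild type, 35.8 and 32.8 in empty vector, and 25.4 and 25.6 in parental libraries. T567A and parental libraries were the lowest, and T567A against wild type gave -0.16 ± 0.083, which did not pass (adjusted p = 0.14). Car9, Ankrd37 and Higd1a did not pass in this comparison either (adjusted p of 0.18, 0.58 and 0.58).

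**Figure D3:**
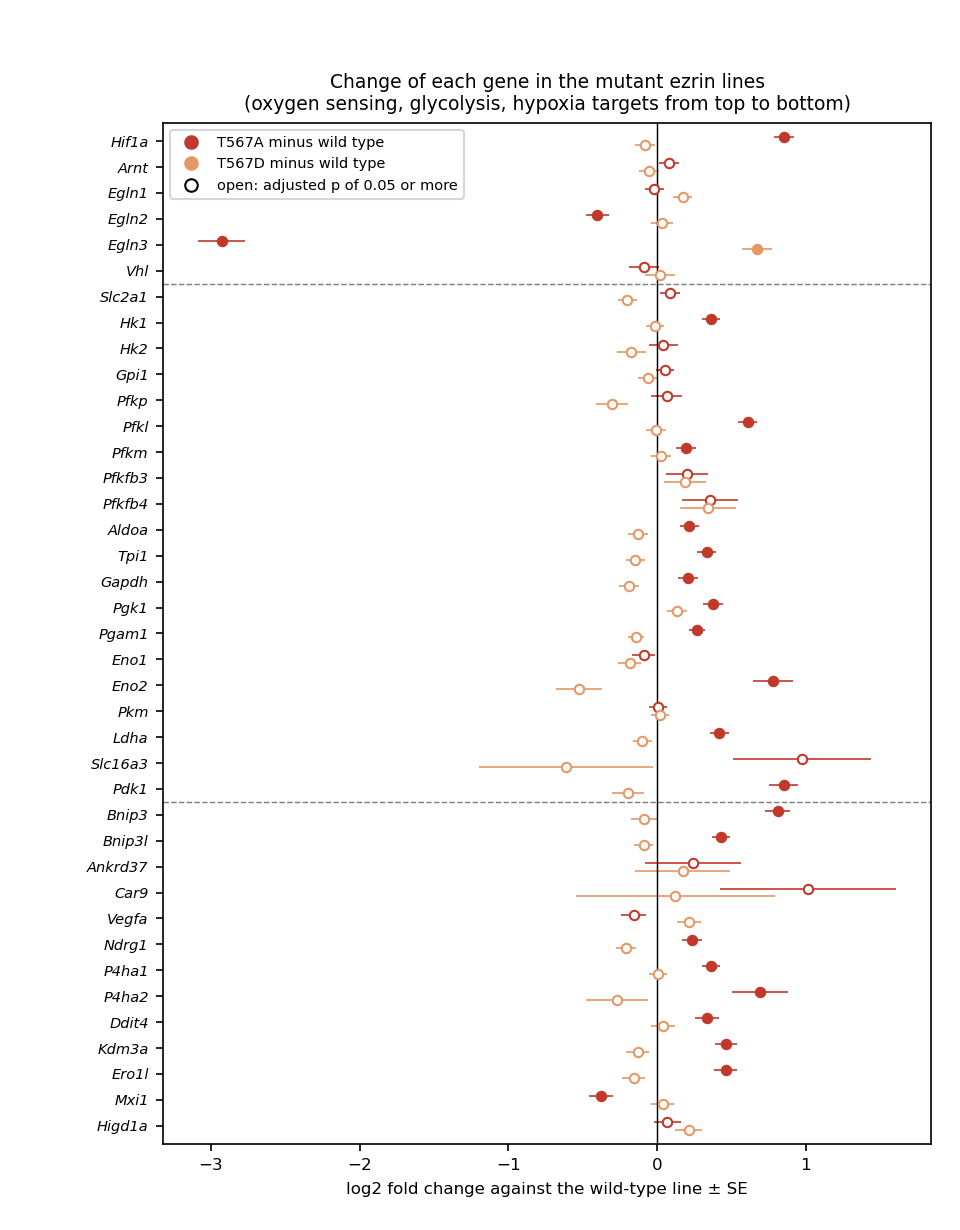
Log2 fold change ± SE (x axis) of the 39 tested genes (rows, by role) in T567A (red) and T567D (orange) against the wild-type line; filled points have an adjusted p under 0.05. Red points are filled right of 0 for 20 genes and left of it for Egln2, Egln3 and Mxi1, and Egln3 is the filled orange point.

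Few differences between T567D and wild type passed the test. Of the 39 genes 1 rose in T567D and none fell, against 0.818% and 0.524% of all tested genes (1.34% in either direction), and the gene was Egln3. At an unadjusted p under 0.05 there were 12 of the 39, against 1344 of all 12595 tested genes. The same single call was made with DESeq2 and with limma on the deposited RPKM. The largest of the differences that did not pass were those of Slc16a3 (-0.61 ± 0.59, adjusted p = 0.78), Eno2 (-0.52 ± 0.16, adjusted p = 0.12) and Pfkfb4 (0.34 ± 0.19, adjusted p = 0.55). Eno2 libraries of T567D and wild type did not overlap. For the abundant enzymes the differences were small and had narrow errors, from -0.18 ± 0.067 for Gapdh to 0.13 ± 0.067 for Pgk1. Between them lay Ldha at -0.10 ± 0.063 and Pkm at 0.02 ± 0.060. The median log2 fold change of the 20 tested glycolytic genes was -0.14, and 7 of them had an unadjusted p under 0.05. T567A minus wild type and T567D minus wild type share the wild-type libraries, so the direct comparison of the mutants is given next.

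T567A against T567D asked how the nonphosphorylatable and the phosphomimetic residue differ. Of the 39 genes, 23 rose and 5 fell in T567A, against 22.5% and 21.6% of all tested genes (44.1% in either direction), with a median log2 fold change of 0.35. Of the 20 tested glycolytic genes 14 rose and 6 did not pass the test. Of the 13 tested targets 8 rose and 2 fell, and of the 6 oxygen-sensing genes 1 rose and 3 fell. After Egln3, the largest differences were those of Eno2 (1.30 ± 0.14, adjusted p = 3e-07), Pdk1 (1.05 ± 0.10, adjusted p = 4.4e-08), P4ha2 (0.96 ± 0.19, adjusted p = 0.00043), Hif1a (given above) and Bnip3 (0.90 ± 0.084, adjusted p = 2.8e-08), apart from Slc16a3, whose 1.59 ± 0.51 (adjusted p = 0.016) rested on levels under 1 CPM and was lost without T567A replicate 3 or T567D replicate 3. Ero1l (chromosome 14, 45283087 to 45318771, minus strand) was at 69.3 and 61.8 CPM in T567A, 44.4 and 40.7 in T567D, 46.2 and 48.7 in wild type, 45.1 and 47.0 in empty vector, and 53.2 and 55.4 in parental libraries. T567A was the highest line and T567D the lowest (log2 fold change 0.62 ± 0.077, adjusted p = 1.6e-06).

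Genes that had not passed against wild type but passed here included Slc2a1 (0.29 ± 0.066, adjusted p = 0.0014) and Pfkp, the platelet-type phosphofructokinase subunit (0.37 ± 0.11, adjusted p = 0.0095). The Pfkp call was lost with DESeq2, with limma on log2(RPKM + 0.1) and without T567D replicate 1. Gapdh rose by 0.40 ± 0.067, Tpi1 by 0.48 ± 0.062, Pgam1 by 0.41 ± 0.056 and Ldha by 0.52 ± 0.063. Vegfa was lower in T567A than in T567D (log2 fold change -0.37 ± 0.082, adjusted p = 0.00093), and Mxi1 was lower as well (-0.41 ± 0.080, adjusted p = 0.00031). The Pfkm call (0.17 ± 0.067, adjusted p = 0.043) sat at the threshold and held in 2 of 20 alternative settings.

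Wild type was set against empty vector to ask what ezrin changed when put back into the disrupted line. Against empty vector, 5 of the 39 rose and 7 fell in wild type, against 8.25% and 7.36% of all tested genes (15.6% in either direction). Besides Egln3, the genes that rose were Pfkfb3 (0.57 ± 0.15, adjusted p = 0.015), Pfkp (0.39 ± 0.11, adjusted p = 0.018), Ndrg1 (0.28 ± 0.067, adjusted p = 0.006) and Pfkm (0.21 ± 0.068, adjusted p = 0.041). Pfkfb3 (chromosome 2, 11471433 to 11554077, minus strand), which makes the allosteric activator of phosphofructokinase, was at 7.46 and 7.40 CPM in T567A, 7.05 and 7.66 in T567D, 6.69 and 6.23 in wild type, 3.90 and 4.80 in empty vector, and 10.7 and 11.4 in parental libraries. The parental libraries were the highest, empty-vector libraries the lowest, and the 3 lines with ezrin constructs lay between. Pfkp (chromosome 13, 6579768 to 6648777, minus strand) was at 14.2 and 13.9 CPM in T567A, 10.7 and 11.0 in T567D, 13.8 and 13.0 in wild type, 9.83 and 10.6 in empty vector, and 5.58 and 5.31 in parental libraries, lowest in parental cells. Ndrg1 (chromosome 15, 66929318 to 66969640, minus strand) was at 171 and 188 CPM in T567A, 127 and 136 in T567D, 155 and 149 in wild type, 124 and 125 in empty vector, and 130.3 and 119 in parental libraries, and Pfkm (chromosome 15, 98092589 to 98132451, plus strand) at 71.8 and 76.0 CPM in T567A, 65.4 and 65.9 in T567D, 65.4 and 63.6 in wild type, 57.0 and 54.5 in empty vector, and 53.4 and 50.9 in parental libraries. In both, T567A was the highest line. These 4 rises were each lost without wild-type replicate 1 and without empty-vector replicate 2.

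The glycolytic group held 5 of the 7 genes that fell in wild type against empty vector: Pdk1 (-0.47 ± 0.10, adjusted p = 0.0029), Ldha (-0.26 ± 0.063, adjusted p = 0.0062), Tpi1 (-0.26 ± 0.062, adjusted p = 0.0064), Pfkl (-0.30 ± 0.064, adjusted p = 0.0027) and Eno2 (-0.41 ± 0.14, adjusted p = 0.048). P4ha1 also fell (-0.24 ± 0.061, adjusted p = 0.0084). Tpi1 (chromosome 6, 124810586 to 124814296, minus strand) was at 575 and 649 CPM in T567A, 447 and 431 in T567D, 482 and 489 in wild type, 596 and 566 in empty vector, and 566.8 and 557 in parental libraries. The lowest libraries were those of T567D. Car9 (chromosome 4, 43506966 to 43513729, plus strand), a cell-surface carbonic anhydrase and a widely used hypoxia marker, was at 0.690 and 0.724 CPM in T567A, 0.289 and 0.468 in T567D, 0.582 and 0.114 in wild type, 2.26 and 1.27 in empty vector, and 1.45 and 0.933 in parental libraries. Its libraries did not overlap between wild type and empty vector (log2 fold change -2.33 ± 0.49, adjusted p = 0.0024), but wild-type replicate 3 lay below the level of 3 counts and the call rested on empty-vector replicate 2 and wild-type replicate 3, being lost when either was left out. The count of 12 fell when any 1 library of empty vector or wild type was left out, which leaves 1 library in that line. The share of all tested genes called in this comparison moved over the settings too, so the fall is no result about this set alone. The Eno2 call held in 6 of 20 alternative settings, those of Ldha and Tpi1 were lost without empty-vector replicate 2 or wild-type replicate 1, that of P4ha1 without empty-vector replicate 3 or wild-type replicate 3, and that of Pdk1 without empty-vector replicate 3.

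Against the same empty-vector libraries, T567D had 3 of the 39 genes higher and 10 lower, against 9.43% and 8.34% of all tested genes (17.8% in either direction), and 8 of the 10 were glycolytic. Eno2 gave -0.93 ± 0.15 (adjusted p = 0.00017), Pdk1 gave -0.67 ± 0.10 (adjusted p = 0.00014), Tpi1 -0.40 ± 0.062 (adjusted p = 0.00013) and Ldha -0.36 ± 0.063 (adjusted p = 0.00043). Besides Egln3, Pfkfb3 (0.76 ± 0.15, adjusted p = 0.0015) and Pfkm (0.23 ± 0.068, adjusted p = 0.021) rose. The Pfkm call was lost with the replicate block and without any 1 library of either line. Without empty-vector replicate 2, which leaves 1 library in that line, fewer of the 39 genes were called. The share of all tested genes called in this comparison moved over the settings too. T567A against empty vector had 21 genes higher and 6 lower, against 23.7% and 22.7% of all tested genes (46.4% in either direction). Hif1a, Bnip3 and P4ha2 were among the higher, at 0.80 ± 0.067, 0.73 ± 0.083 and 1.00 ± 0.19, and Egln3 and Car9 among the lower, at -2.07 ± 0.17 and -1.31 ± 0.43. The Car9 call was lost with DESeq2 and without empty-vector replicate 2, T567A replicate 2 or T567A replicate 3. Of the 20 tested glycolytic genes, 13 rose in T567A against empty vector, 1 fell and 6 did not pass. Tpi1 (0.07 ± 0.062, adjusted p = 0.34) and Aldoa (0.06 ± 0.066, adjusted p = 0.45), both called against wild type, were among these 6. P4ha1 did not pass either (0.12 ± 0.060, adjusted p = 0.10). The Ldha call (0.15 ± 0.063, adjusted p = 0.0496) held in 6 of 20 alternative settings and those of Gapdh and Pfkfb4 in 10. Those of Hk1, Pfkl, Pgk1 and Pgam1 held in all 20.

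The empty-vector and parental lines differed in both directions. In empty vector against parental cells, 13 of the 39 genes rose and 10 fell, against 27.4% and 27.2% of all tested genes (54.6% in either direction), so that the shares lay near those of the whole transcriptome. The median log2 fold change was 0.08. Of the hypoxia-induced targets 7 of 13 rose and 2 fell, in glycolysis 6 of 20 rose and 5 fell, and in oxygen sensing 3 of 6 fell. Pdk1 rose by 1.24 ± 0.11 (adjusted p = 4.3e-09), Pfkp by 0.91 ± 0.13 (adjusted p = 3.6e-06) and Eno2 by 0.47 ± 0.14 (adjusted p = 0.0073). The Eno2 call was lost with DESeq2 and without empty-vector replicate 3 or parental replicate 3. P4ha1 (chromosome 10, 59323296 to 59373304, plus strand) was at 191 and 194 CPM in T567A, 152 and 149 in T567D, 152 and 146 in wild type, 170.3 and 184 in empty vector, and 116 and 115 in parental libraries, and Kdm3a (chromosome 6, 71588972 to 71632990, minus strand) at 61.6 and 58.4 CPM in T567A, 41.3 and 38.2 in T567D, 43.1 and 43.8 in wild type, 42.6 and 47.3 in empty vector, and 31.3 and 32.7 in parental libraries. In both genes the parental libraries were the lowest and the T567A libraries the highest. P4ha1 rose by 0.61 ± 0.062 (adjusted p = 3e-08) and Kdm3a by 0.49 ± 0.080 (adjusted p = 2.4e-05). Ankrd37 (chromosome 8, 45996902 to 46005707, minus strand), a HIF-induced ankyrin-repeat gene, was at 2.28 and 1.22 CPM in T567A, 1.39 and 1.87 in T567D, 1.45 and 1.43 in wild type, 1.24 and 1.33 in empty vector, and 0.291 and 0.467 in parental libraries. The parental libraries were the lowest, and Ankrd37 rose in empty vector against them (1.75 ± 0.44, adjusted p = 0.0021).

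The genes that fell in empty vector against parental cells were led by the enzymes that set fructose 2,6-bisphosphate, the activator of phosphofructokinase. Pfkfb4 (chromosome 9, 108991778 to 109032228, plus strand) was at 3.94 and 3.56 CPM in T567A, 3.64 and 3.74 in T567D, 2.79 and 3.03 in wild type, 2.49 and 2.78 in empty vector, and 6.28 and 6.88 in parental libraries. Parental libraries stood above the others for Pfkfb4 as for Pfkfb3. Pfkfb3 fell with log2 fold change -1.35 ± 0.14, adjusted p = 5.8e-08, and Pfkfb4 with log2 fold change -1.32 ± 0.17, adjusted p = 1.5e-06. Hk2 (chromosome 6, 82725025 to 82774454, minus strand) was at 35.4 and 29.8 CPM in T567A, 29.6 and 26.2 in T567D, 30.9 and 32.1 in wild type, 30.3 and 30.4 in empty vector, and 41.03 and 47.8 in parental libraries. The parental libraries were again the highest (-0.55 ± 0.094 in empty vector against parental cells, adjusted p = 4e-05). Bnip3l fell as well (-0.31 ± 0.062, adjusted p = 0.00021). Gapdh (-0.29 ± 0.067) and Pgk1 (-0.31 ± 0.067) fell, while Slc2a1 (0.33 ± 0.066), Aldoa (0.38 ± 0.066) and Vegfa (0.43 ± 0.082) rose.

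Wild-type and parental lines also differed in both directions. Against parental cells, wild type had 13 of the 39 genes higher and 15 lower, against 27.7% and 28.5% of all tested genes (56.2% in either direction). The larger side turned with the scaling, to 16 higher and 14 lower with RLE and to 17 and 12 with upper-quartile scaling. The higher and lower shares of all tested genes were not counted under these scalings, so the turn may not be particular to this set. Ankrd37 (1.91 ± 0.43, adjusted p = 0.00078), Pfkp (1.30 ± 0.12, adjusted p = 1.1e-08) and Pdk1 (0.76 ± 0.11, adjusted p = 8.7e-06) were higher. Car9 (-1.76 ± 0.53, adjusted p = 0.0071), Pfkfb4 (-1.17 ± 0.17, adjusted p = 5.8e-06) and Pfkfb3 (-0.78 ± 0.13, adjusted p = 4e-05) were lower, and the Car9 call was lost without wild-type replicate 3 or parental replicate 1. Higd1a, a mitochondrial inner membrane protein gene, was lowest in wild type, at 38.1 and 40.2 CPM against 52.8 and 43.9 in parental libraries (-0.30 ± 0.090, adjusted p = 0.0068). The Higd1a call was lost without wild-type replicate 1 or parental replicate 1.

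Within enzyme families the balance of genes shifted between lines, measured as shares of summed RPKM with the SD over 2 libraries. Among the prolyl hydroxylases, Egln3 held 1.83 ± 0.16% in T567A, 15.9 ± 0.54% in T567D, 11.3 ± 0.41% in wild type, 5.97 ± 0.83% in empty vector and 8.64 ± 0.047% in parental cells. The summed level of the 3 hydroxylase genes was 37.4 and 39.0 RPKM in T567A, 53.2 and 57.7 in T567D, 48.8 and 48.2 in wild type, 50.3 and 50.7 in empty vector, and 57.5 and 53.9 in parental cells. Thus the T567A libraries had the lowest sum of hydroxylase mRNA, and Egln1 supplied most of it, at 63.0 ± 0.93%. Hexokinase mRNA was mainly Hk1, and the Hk2 share was 10.9 ± 1.6% in T567A, 12.0 ± 0.62% in T567D, 13.2 ± 0.48% in wild type, 13.4 ± 0.60% in empty vector and 19.1 ± 2.2% in parental cells. The hexokinase sum was 45.3 and 47.3 RPKM in T567A and 34.5 to 37.9 in the other 8 libraries.

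Among phosphofructokinase genes, Pfkl held 63.7 ± 0.67% in T567A, 56.5 ± 0.50% in T567D, 56.7 ± 0.061% in wild type, 65.3 ± 0.099% in empty vector and 67.1 ± 0.51% in parental cells. T567D and wild type thus had the largest Pfkm shares, at 41.8 ± 0.50% and 41.1 ± 0.10%. The summed phosphofructokinase level was 56.2 and 61.6 RPKM in T567A, against 43.9 and 44.8 in T567D, 45.0 and 43.6 in wild type, 48.0 and 46.4 in empty vector, and 45.9 and 42.8 in parental cells. No test was made of the shares.

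**Figure D4:**
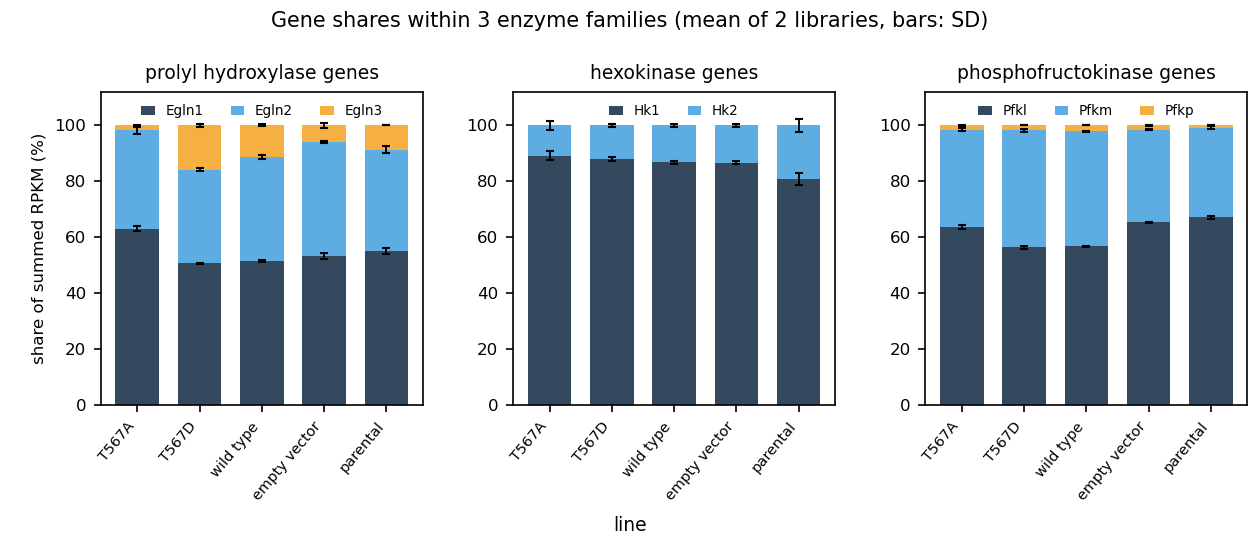
Stacked bars of each gene's share of the summed RPKM (y axis, %) within 3 enzyme families, mean of 2 libraries per line with SD as error bars. The Egln3 segment is 1.83% in T567A and 15.9% in T567D, the Hk2 segment is largest in parental cells, and the Pfkm segment is largest in T567D and wild type.

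Genes of the same pathways outside the set were counted from lists of 69 genes, 52 of them tested. In T567A against wild type 19 of the 52 rose and 7 fell, to be read against 20.4% and 19.1% of all tested genes. In T567D against wild type 4 had an unadjusted p under 0.05, against 1344 of all 12595 tested genes. These 4 missed the threshold after adjustment. In empty vector against parental cells 12 rose and 18 fell, against 27.4% and 27.2% of all tested genes. The list of pyruvate dehydrogenase and mitochondrial pyruvate entry had 7 of 11 higher in T567A than in wild type, including Pdp2, a phosphatase that activates pyruvate dehydrogenase (22.8 ± 1.8 CPM in T567A and 11.9 ± 0.46 in wild type, SD, n = 2 each; 0.94 ± 0.12), Pdk3, a kinase that inactivates it (0.40 ± 0.091), and the subunit gene Pdhb (0.40 ± 0.068). In empty vector against parental cells 6 of the 11 fell, against the 27.2% of all tested genes, and 5 did not pass, with Pdk3 at -1.29 ± 0.085, the pyruvate carrier gene Mpc2 at -0.75 ± 0.089 and Pdha1 at -0.59 ± 0.064. Of the 4 partners of VHL in its ligase, Cul2 (0.31 ± 0.078) and Eloc (0.26 ± 0.092) rose in T567A against wild type, and Elob was among the 2 that fell (-0.27 ± 0.082).

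The counts that follow for T567A against wild type are to be read against the same 20.4% higher and 19.1% lower among all tested genes. Of 20 tested further hypoxia-linked genes, 7 rose. Stc2, a secreted stanniocalcin (0.58 ± 0.091), and Fam162a (0.44 ± 0.074) were among the genes that rose. Of 10 tested further glycolytic isoforms 1 rose and 3 fell, with Eno3 at -0.70 ± 0.080 and Slc2a8 at -0.88 ± 0.17. Among called genes of that list with 1 CPM or more in the higher line, the widest differences set parental cells against empty vector or wild type. Slc16a1, which encodes the lactate transporter MCT1, was at 50.8 ± 2.6 CPM in empty vector and 156 ± 6.5 in parental cells (-1.61 ± 0.080). In wild type Slc16a1 was at 40.4 ± 4.9 CPM (-1.95 ± 0.081 against parental cells). Hkdc1, a hexokinase-domain gene, was at 0.0861 ± 0.042 CPM, below the level of 3 counts, in empty vector and 6.84 ± 0.55 in parental cells. Of 7 pentose phosphate genes, 2 rose and 1 fell in T567A against wild type, shares near those of all tested genes, and Tkt, transketolase, fell in wild type against empty vector (-0.40 ± 0.066, adjusted p = 0.00031). Ldhb, the second lactate dehydrogenase subunit, had at most 7 counts in a library and was not tested.

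Some counts of the set could hold reads of other genes. Eno1 shares a stretch of 1736 bases at 99.5% identity with Eno1b, whose counts came to 128% of those of Eno1. Eno1 was at 617 and 770.3 CPM in T567A, 648 and 653 in T567D, 744 and 731 in wild type, 839.5 and 801 in empty vector, and 799 and 739 in parental libraries. T567A replicate 2 was the lowest of the 10, and T567A replicate 3 lay within the range of the other lines. With Eno1b added, T567A against wild type gave 0.01 ± 0.063 (adjusted p = 0.93), close to the -0.09 ± 0.077 of Eno1 alone. The sum fell in T567D against empty vector (-0.25 ± 0.063, adjusted p = 0.0077), as Eno1 alone did (-0.34 ± 0.077, adjusted p = 0.0057), a call lost without empty-vector replicate 2. Eno1 alone also fell in T567A against empty vector (-0.24 ± 0.077, adjusted p = 0.016), and the sum did not pass there (-0.15 ± 0.063, adjusted p = 0.064). The near-identical annotated copies of Gapdh held 0.146% of its counts.

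Exons of 3 genes of the set overlap those of a gene on the opposite strand with more counts than their own, and the counting is not stated to use the strand. Pfkp overlaps Pitrm1 by 748 bases. Pitrm1 differed by 0.58 ± 0.062 between empty vector and parental cells, where Pfkp differed by 0.91 ± 0.13, by 0.08 ± 0.062 between T567A and wild type, and by 0.21 ± 0.062 between T567A and T567D (adjusted p = 0.011), where Pfkp was higher too. Ankrd37 overlaps Ufsp2 by 57 bases, and Ufsp2 differed by -0.08 ± 0.077 between empty vector and parental cells (adjusted p = 0.42), where Ankrd37 rose. Pfkm overlaps Senp1 by 18 bases, and Senp1 differed by -0.16 ± 0.065 between T567A and wild type (adjusted p = 0.055).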

How the data were processed

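Poly-A RNA of 10 libraries, 2 per line, was sequenced on DNBSEQ from strand-marked (dUTP) libraries, per the labels' protocols. For each library the authors deposited raw counts per gene name and RPKM values. The genome build was GRCm38, per the submitters' processing notes. Which aligner and counting tool were used, and whether counting used the strand, is not given in the sources. Groups came from the labels. Testing of the counts used edgeR 4.0.16 under R 4.3.3: filterByExpr (minimum count 10, minimum total 15) kept 12595 genes, TMM scaled the libraries, and all 10 entered 1 robust quasi-likelihood fit with 5 line means and 5 residual degrees of freedom. The call rule was a Benjamini-Hochberg adjusted p under 0.05 (two-sided, over all tested genes). The deposited RPKM served to set genes side by side and in limma 3.58.1. The set and all gene lists were chosen with earlier results of these data known. Values in every library are given for called genes of the set without overlap and with 1 CPM or more on average in the higher line: the 6 that rose most and the 6 that fell most in each of the 5 main comparisons, and 3 and 3 in the 3 secondary ones. They are also given for Hif1a, Epas1 (as counts), Egln1, Egln2, Egln3, Vhl, Slc2a1, Ldha and Vegfa. Outside the set, up to 3 called genes per list and comparison could be named. The result of 1 gene on these lists is not reported here. Alternatives were DESeq2 1.42.0, RLE or upper-quartile scaling, no filter, a filter of 5 CPM in 2 libraries, a replicate block, fits of the compared lines alone, limma on log2(RPKM + 1) and log2(RPKM + 0.1), and leaving out each library. Summing Eno1 and Eno1b was added after seeing the data. The edgeR test was checked on simulated counts. Positions come from GENCODE M21, and near-identical copies (at least 95% identity over 300 bases) were found with blastn 2.17.0. Figures were drawn with matplotlib 3.10.9. Floors cover counting error only.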

Additional observations from a re-analysis of the deposited data

How the results depend on the processing

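Of the 44 gene results named by rule in the main comparisons, 31 kept their call under every alternative, 13 lost it under at least 1, and none changed sign. Of the 878 alternative values of these gene results, 821 kept their direction and their side of the threshold. The replicate numbers did not pair the libraries (correlations of deviations between -0.0995 and -0.0074). With the number as a replicate block, wild type against empty vector had 7 of the 39 genes called, 1 higher and 6 lower, in place of 12, and the cause was not tested. Leaving out 1 library, so that fewer libraries entered the fit, gave 4 to 14 calls for wild type against empty vector, 8 to 14 for T567D against empty vector, 18 to 23 for T567A against wild type, 1 for T567D against wild type, 24 to 29 for T567A against T567D, 19 to 27 for T567A against empty vector, 18 to 23 for empty vector against parental cells and 19 to 30 for wild type against parental cells. In the last of these the larger side turned in 7 of 20 alternatives. The leave-one-out counts came from fits with 1 library in a line. In each comparison the share of all tested genes called moved over the settings too, so the moves are no result about this set alone. Egln3 shares computed from CPM kept the order of the lines. Car9, Slc16a3 and Ankrd37, the least abundant tested genes of the set by CPM, had standard errors of 0.32 to 0.74 on the log2 scale.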
